A study of Mus musculus with 6 samples.

Results

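The 44 genes described here encode the enzymes and core subunits that write or erase methyl marks on histone lysines. They were taken from a list of named histone lysine methyltransferase and demethylase genes, and they stand among 57010 genes in the deposited count table. Every listed gene was found there, and all 44 passed the filter on low counts that left 16093 genes for testing. Of the 44, 29 are methyltransferases or subunits of methyltransferase complexes and 15 are demethylases. By main target residue, 13 act on lysine 4 of histone H3 (H3K4), 13 on H3K9, 5 on H3K27, 8 on H3K36 and 3 on H4K20, and 2 have other targets. Kdm4a, Kdm4b and Kdm4c, which erase methyl marks from both H3K9 and H3K36, were placed under H3K9. Kdm7a, which also acts on H3K27, and Phf8, which also acts on H4K20, were placed there too.

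Histone methyltransferases transfer methyl groups from S-adenosylmethionine to lysines of histone tails, most of them through a SET domain. Demethylases remove the marks either by flavin-dependent oxidation, as Kdm1a and Kdm1b do, or through a Jumonji domain that uses iron, oxygen and 2-oxoglutarate. Methylation of H3K4 marks active promoters and enhancers, H3K36 methylation marks transcribed gene bodies, and methylation of H3K9, H3K27 and H4K20 is associated with silent or compacted chromatin.

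The study measured polyadenylated RNA of mouse ear fibroblasts, described in the study design as dermal, by RNA sequencing. Its question was how matrix stiffness affects the epigenetic state during reprogramming to induced neurons. The samples were fibroblasts grown for 3 days on polyacrylamide hydrogels of 1 kPa, on hydrogels of 20 kPa, or on glass, the control, with 2 libraries per culture surface and 500000 cells per sample. The sources used here state no strain, age, genotype or reprogramming factor for any of the groups. They also do not say whether the libraries of a culture surface came from separate animals or cultures. A p-value here therefore reflects the spread among these libraries, and that spread may be technical. The fit shares information on spread over all tested genes, so a p-value does not rest on the gene's own replicates alone. Library totals lay between 17669006 and 21350111 counts. Levels are given as CPM, a gene's counts relative to the scaled library total, which are compared within a gene only, and log2 fold changes, standard errors (SE) and adjusted p-values come from edgeR's quasi-likelihood test with Benjamini-Hochberg adjustment over all 16093 genes at a threshold of 0.05. The 3 comparisons share libraries, so their results for a gene are not independent of each other.

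As a sum, fibroblast markers were abundant in every library. All 12 on the list passed the filter, and their summed level was 30267 and 29116 CPM on 1 kPa, 32985 and 31672 CPM on 20 kPa, and 22056 and 20659 CPM on glass. Compared with glass, 9 of the 12 were higher and 3 lower on 1 kPa, against 23.0% and 22.0% of all tested genes. On 20 kPa 8 were higher and 3 lower than on glass, against 22.3% and 19.6%. Dcn averaged 3542 CPM on 1 kPa, 2913 CPM on 20 kPa and 157 CPM on glass. Vim averaged 2191 CPM on 1 kPa, 2722 CPM on 20 kPa and 4192 CPM on glass. Marker sums of other cell types were far lower than the fibroblast sum, and most of them were higher on the gels than on glass. Skeletal muscle markers summed to 31.9 and 26.7 CPM on 1 kPa, 16.9 and 13.2 CPM on 20 kPa, and 7.26 and 6.32 CPM on glass. Of 6 tested, 5 were higher on 1 kPa than on glass and 4 were lower on 20 kPa than on 1 kPa, or 2 without 1 kPa replicate 1 and 1 without 20 kPa replicate 2. Leukocyte markers summed to 56.2 and 56.1 CPM on 1 kPa, 28.2 and 24.6 CPM on 20 kPa, and 16.4 and 17.8 CPM on glass, with 2 of 5 tested, Cd14 and Lyz2, higher on 1 kPa than on glass. Cd14, a lipopolysaccharide coreceptor, averaged 42.5 ± 1.7 CPM on 1 kPa, 14.1 ± 1.4 CPM on 20 kPa and 5.26 ± 0.47 CPM on glass (SD, n = 2), with a log2 fold change of 3.00 (SE 0.12, adjusted p = 3e-19) on 1 kPa against glass, and that of Lyz2, a lysozyme, was 0.99 (SE 0.21, adjusted p = 0.00033). On 20 kPa against glass, 2 of the 5 leukocyte markers were higher and 1, Csf1r, was lower. Csf1r averaged 2.79 CPM on 1 kPa, 2.09 CPM on 20 kPa and 3.92 CPM on glass. Its log2 fold change was -0.89 (SE 0.25, adjusted p = 0.00499) on 20 kPa against glass. The leukocyte marker Ptprc averaged 0.133 CPM on 1 kPa, 0.170 CPM on 20 kPa and 0.261 CPM on glass. Endothelial markers summed to 33.6 and 30.6 CPM on 1 kPa, 27.8 and 27.4 CPM on 20 kPa, and 15.3 and 16.0 CPM on glass, with 4 of 7 tested higher on 1 kPa than on glass. Schwann cell and melanocyte markers lay between 21.4 and 33.6 CPM as a sum, with 3 of 6 tested higher and 1 lower on 1 kPa than on glass. Keratinocyte markers summed to between 17.5 and 28.2 CPM, with 1 of 4 tested higher and 2 lower on 1 kPa than on glass. Most of that sum was the higher gene, Trp63, at 23.3 CPM on 1 kPa, 22.5 CPM on 20 kPa and 11.1 CPM on glass. Krt5 and Krt14 averaged 2.68 and 3.13 CPM on glass and were lower on both gels. Chondrocyte markers summed to 838 and 818 CPM on 1 kPa, 1449 and 1396 CPM on 20 kPa, and 567 and 531 CPM on glass, and 5 of 7 tested were higher and 1 lower on 1 kPa than on glass. The part of other cell types in the values of the 44 genes was not tested. In bulk RNA, a smaller number of cells of a type and less RNA per cell cannot be told apart.

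On 1 kPa the changes among the 44 genes ran mostly upward relative to glass. Compared with glass, 17 genes were higher and 3 were lower on 1 kPa, which is 45.5% of the 44 and close to the 45.0% of all tested genes that passed the threshold. The 17 higher genes are 38.6% of the 44, against 23.0% of all tested genes, and the 3 lower genes are 6.82%, against 22.0%. Both 1 kPa libraries lay above both glass libraries for 22 genes and below them for 7, in a comparison in which 71.0% of all tested genes did not overlap. The median log2 fold change was 0.07 for the 44 genes and 0.00 for all tested genes. The median size of the change regardless of sign was smaller in the 44 genes, at 0.16, against 0.29 for all tested genes. Without glass replicate 2, the split between 1 kPa and glass became 15 higher and 6 lower.

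On 20 kPa, 7 genes were higher and 5 lower than on glass, which is 27.3% of the 44, against 41.8% of all tested genes. The higher genes are 15.9% and the lower 11.4% of the 44, against 22.3% and 19.6% of all tested genes. Libraries did not overlap for 15 genes upward and 9 downward, against 67.5% of all tested genes in either direction. The split of calls was 5 higher and 7 lower without glass replicate 2, 9 higher and 3 lower without glass replicate 1, 5 higher and 5 lower without 20 kPa replicate 1, and 6 higher and 1 lower without 20 kPa replicate 2. Scaling to total counts gave 7 higher and 2 lower. Replicate 1 was above replicate 2 for 31 of the 44 genes on 20 kPa and for 31 on glass, 70.5% in each, against 52.4% and 52.2% of all tested genes. On 1 kPa it was above for 21, 47.7%, against 50.2%. The part of these leans in the splits was not tested. The median log2 fold change of the 44 genes was 0.04, against 0.02 for all tested genes, and the median size was 0.10, against 0.27.

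Between the gels, 1 gene was higher and 11 were lower on 20 kPa than on 1 kPa, again 27.3% of the 44, against 18.9% of all tested genes. Lower calls were 25.0% of the 44 and 9.92% of all tested genes, and higher calls 2.27% of the 44 and 8.94% of all tested genes. Libraries did not overlap for 8 genes upward and 25 downward, against 60.1% of all tested genes in either direction, and the median log2 fold change was -0.08 for the 44 genes and 0.00 for all tested genes. The total of 12 fell to 7 without 1 kPa replicate 1, and to 6 without 1 kPa replicate 2, without 20 kPa replicate 1 or without 20 kPa replicate 2. Scaling to total counts gave 2 higher and 8 lower. A single test over the 3 culture surfaces called 20 of the 44 genes, against 51.2% of all tested genes.

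**Figure D1:**
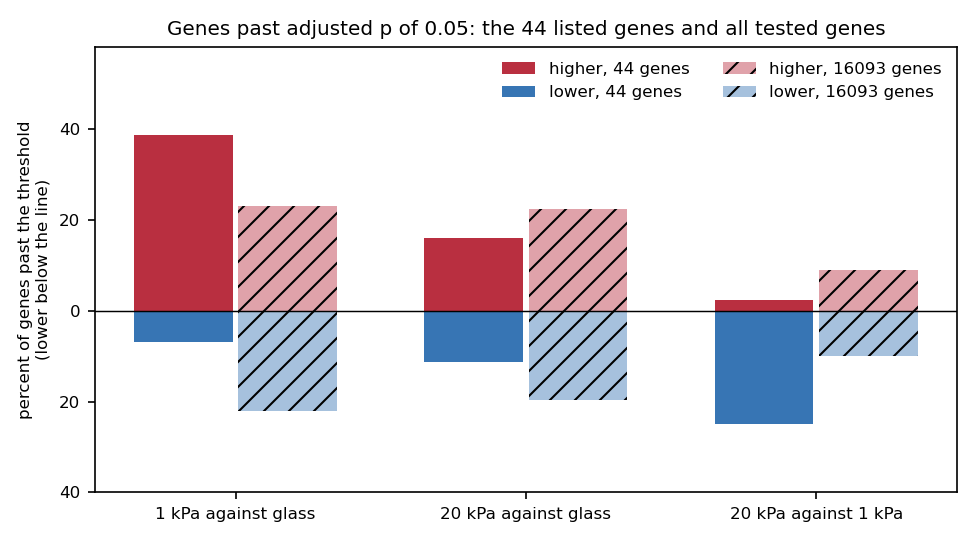
Percent of genes past an adjusted p of 0.05 in each comparison, drawn upward for genes higher and downward for genes lower in the first-named culture surface, for the 44 listed genes (solid) and all 16093 tested genes (hatched). Higher calls reach 38.6% of the 44 on 1 kPa against glass, and lower calls reach 25.0% on 20 kPa against 1 kPa.

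Ranked by group means, 25 of the 44 genes were highest on 1 kPa, 9 on 20 kPa and 10 on glass. These are 56.8%, 20.5% and 22.7% of the 44, against 31.9%, 29.2% and 38.9% of all tested genes, for 1 kPa, 20 kPa and glass. For 16 genes both 1 kPa libraries lay above the other 4 libraries, which is 36.4% of the 44, against 17.4% of all tested genes. Both 20 kPa libraries lay above the rest for Kdm4c (2.27%, against 14.2% of all tested genes), and both glass libraries for Setd7, Ezh2 and Phf8 (6.82%, against 24.6%). At the low end, both 1 kPa libraries lay below the other 4 for 6 genes (13.6%, against 16.1%), both 20 kPa libraries for 7 (15.9%, against 11.6%), and both glass libraries for 13 (29.5%, against 26.6%).

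Calls of writers and of erasers on 1 kPa were both mostly upward. Among the 29 methyltransferase genes, 10 were higher and 2 lower on 1 kPa than on glass, and among the 15 demethylase genes 7 were higher and 1 was lower. On 20 kPa against glass, the methyltransferase genes gave 3 higher and 3 lower, and the demethylase genes 4 higher and 2 lower. Calls on 1 kPa are 41.4% of the methyltransferase and 53.3% of the demethylase genes, against 45.0% of all tested genes. The calls on 20 kPa against glass are 20.7% of the methyltransferase genes and 6 of the 15 demethylase genes, against 41.8% of all tested genes. Kdm7a was the only gene of the 44 with a call of at least 2-fold. It passed that size on both gels against glass, where 12.6% of all tested genes did so on 1 kPa and 11.5% on 20 kPa. Between the gels 3.10% of all tested genes passed it.

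**Figure D2:**
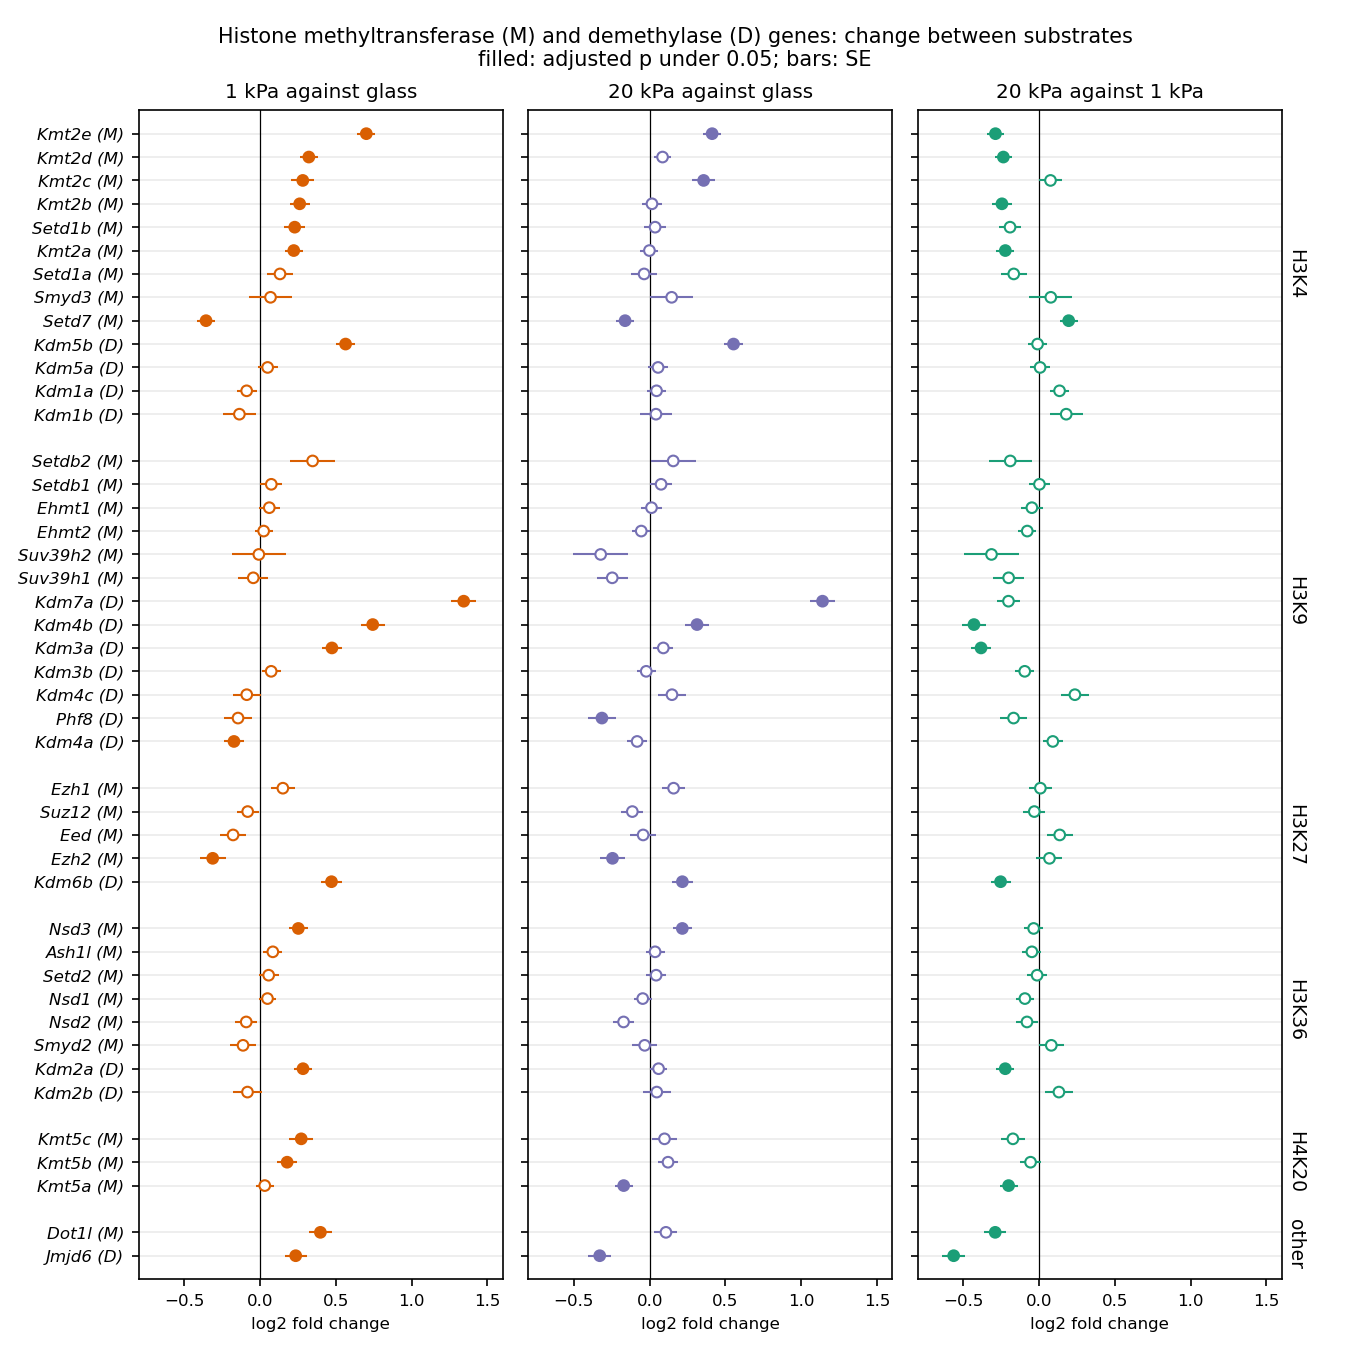
Log2 fold change of each of the 44 genes in the 3 comparisons, grouped by target residue, with M for methyltransferase and D for demethylase. Filled circles passed an adjusted p of 0.05 and bars are the SE. Kdm7a stands farthest to the right on both gels against glass, and Jmjd6 farthest to the left on 20 kPa against 1 kPa.

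Genes can be ranked against each other only per length, as CPM per kb of exon. On this scale Ehmt2, which encodes the H3K9 methyltransferase G9a, was the most abundant of the 44, with a mean of 42.1 over the 6 libraries. Kmt5a followed at 25.2, then Kdm4a at 19.8, Kdm1a at 17.0 and Kmt2e at 15.8. Suv39h2 and Smyd3 were the least abundant, at 1.25 and 1.01. The median per-length level of the 44 genes was 8.05, against 5.58 for the 13410 tested protein-coding genes. With the length of the longest transcript in place of the exon union, Ehmt2 and Kmt5a kept the highest ranks, Kdm1a stood above Kdm4a, and the median of the 44 genes was 10.5.

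**Figure D3:**
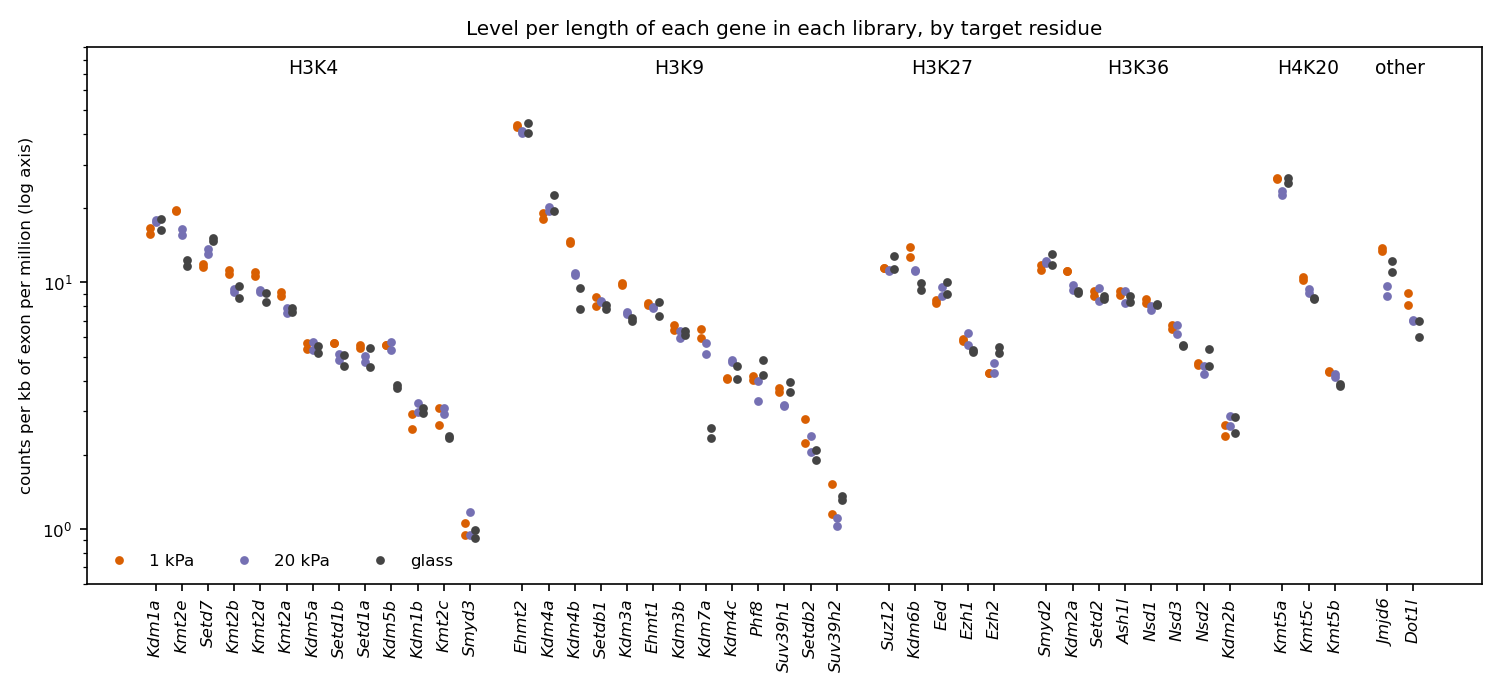
Level per length (CPM per kb of exon, log axis) of each of the 44 genes in each of the 6 libraries, ordered by level within each target residue. Ehmt2 leads with a mean of 42.1 and Smyd3 is lowest at 1.01.

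In 7 genes, Kdm7a, Kdm4b, Kmt2e, Kdm5b, Kdm3a, Kdm6b and Jmjd6, a change past the threshold had a log2 size of at least 0.4, and Dot1l lay just under it. Promoter sequences of these genes are shown because Kdm3a and other Jumonji genes are known to be induced under low oxygen, and hypoxia-inducible factors bind a short core whose letters can be searched. Kdm7a, Kdm5b, Kdm3a and Jmjd6 had an entry in the RefSeq promoter table (GRCm38.p6), which gives 250 bases before to 50 bases after a gene's start. Capitals mark ACGTG or GCGTG, searched on both strands (CACGT or CACGC where the match is on the other strand). The Kdm7a window is chr6:39206724-39207023 on the minus strand and that of Kdm5b is chr1:134559928-134560227 on the plus strand. The first of 3 windows for Kdm3a is chr6:71632868-71633167 on the minus strand, and that of Jmjd6 is chr11:116843400-116843699 on the minus strand.
Kdm7a: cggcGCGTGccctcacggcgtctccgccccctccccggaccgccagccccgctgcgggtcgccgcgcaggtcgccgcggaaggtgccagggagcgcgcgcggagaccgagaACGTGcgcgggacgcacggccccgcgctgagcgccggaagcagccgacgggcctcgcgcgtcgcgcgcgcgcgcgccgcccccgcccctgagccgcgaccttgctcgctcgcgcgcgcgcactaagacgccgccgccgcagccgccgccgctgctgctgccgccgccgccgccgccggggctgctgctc
Kdm5b: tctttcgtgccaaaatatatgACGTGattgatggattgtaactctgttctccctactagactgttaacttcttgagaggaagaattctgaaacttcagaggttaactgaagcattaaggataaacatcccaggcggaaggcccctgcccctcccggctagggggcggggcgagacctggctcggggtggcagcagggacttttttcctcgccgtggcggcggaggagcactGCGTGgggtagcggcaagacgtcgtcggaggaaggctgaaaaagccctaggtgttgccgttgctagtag
Kdm3a: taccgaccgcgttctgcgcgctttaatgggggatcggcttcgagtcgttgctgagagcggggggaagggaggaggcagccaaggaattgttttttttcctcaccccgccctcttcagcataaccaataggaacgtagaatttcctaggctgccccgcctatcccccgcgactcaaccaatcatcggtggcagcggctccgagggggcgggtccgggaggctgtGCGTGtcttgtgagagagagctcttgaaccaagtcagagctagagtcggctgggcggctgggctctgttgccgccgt
Jmjd6: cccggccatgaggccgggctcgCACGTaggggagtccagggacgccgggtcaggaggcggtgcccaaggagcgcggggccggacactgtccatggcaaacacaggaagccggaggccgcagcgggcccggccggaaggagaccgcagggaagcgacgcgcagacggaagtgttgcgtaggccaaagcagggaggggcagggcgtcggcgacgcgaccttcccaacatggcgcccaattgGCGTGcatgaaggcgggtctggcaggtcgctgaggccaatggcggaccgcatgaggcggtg
The Kdm7a, Kdm5b and Jmjd6 windows hold 2 cores each and the Kdm3a window shown holds 1, while the other 2 Kdm3a windows hold 0. Over all 31 of the 44 genes that matched the table, with 42 windows, 71.4% of windows hold a core, against 43.8% of the 32851 windows in the table. The core contains a CpG, and the windows of these genes had a median GC content of 65.5%, against 52.7% in the table. Among windows of genes higher on 1 kPa than on glass, 69.2% hold a core, and among windows of genes with no call in that comparison 73.1% do. A match is only a run of letters and says nothing of whether a factor binds there.

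**Figure D4:**
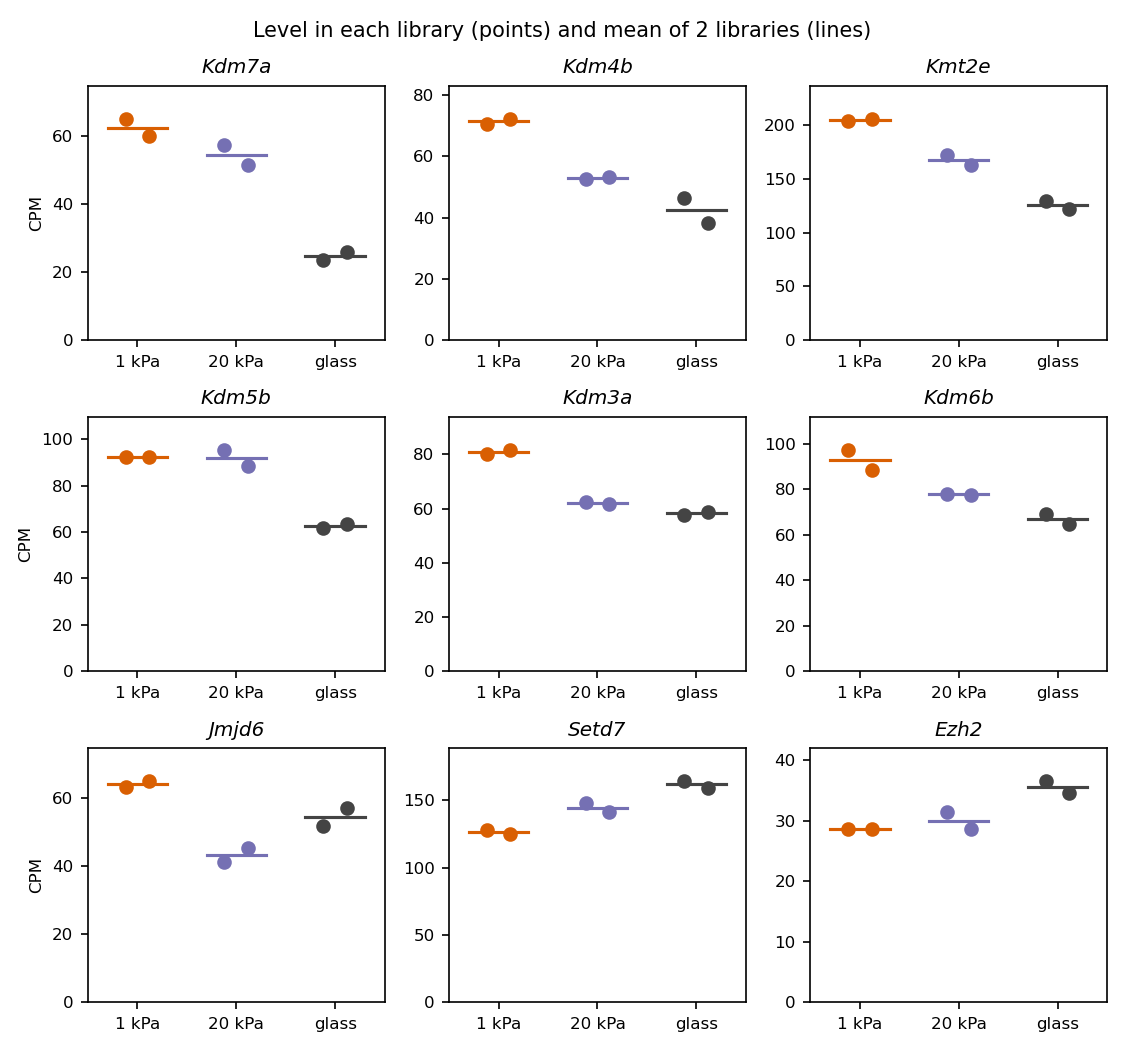
CPM of 9 of the genes in each library (points, replicate 1 left of replicate 2) with the mean of the 2 libraries (lines), on 1 kPa, 20 kPa and glass. Each axis starts at 0. Kdm7a lies at 60.0 to 64.9 CPM on 1 kPa and at 23.5 to 25.9 CPM on glass, the Kdm5b values of the gels overlap, and Setd7 and Ezh2 are highest on glass.

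Most H3K4 methyltransferase genes rose on 1 kPa. Compared with glass, 6 of the 9 H3K4 methyltransferase genes rose on 1 kPa and 1, Setd7, fell, which is 66.7% and 11.1% of them, against 23.0% and 22.0% of all tested genes. The 6 were Kmt2e, Kmt2d, Kmt2c, Kmt2b, Setd1b and Kmt2a, which belong to the trithorax-related MLL and SETD1 families. On 20 kPa only Kmt2e and Kmt2c of them passed the threshold against glass. They are 22.2% of the 9 genes, close to the 22.3% of all tested genes that were higher there. Setd1a, the close relative of Setd1b, had a log2 fold change of 0.13 (SE 0.09, adjusted p = 0.233) on 1 kPa against glass, and 52.3% of its exons overlap other genes. The call of Setd1b was lost without glass replicate 2, 1 kPa replicate 1 or 1 kPa replicate 2, with an adjusted p of up to 0.0929. Smyd3, a methyltransferase with histone and cytoplasmic substrates, ranged over 8.47 to 10.8 CPM in the 6 libraries and passed no comparison.

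Kmt2e, whose SET-domain protein MLL5 binds H3K4 trimethylation and whose own enzyme activity is disputed, changed the most of the writers. It lies at chr5:23434441-23504235 on the plus strand (GRCm38), and 9.31% of its exons overlap another gene. Kmt2e had 203 and 205 CPM on 1 kPa, 172 and 162 CPM on 20 kPa, and 129 and 122 CPM on glass. The 3 culture surfaces did not overlap, with 1 kPa highest and glass lowest. The log2 fold change was 0.70 (SE 0.06, adjusted p = 2.62e-11) on 1 kPa against glass, 0.41 (SE 0.06, adjusted p = 1e-06) on 20 kPa against glass and -0.29 (SE 0.06, adjusted p = 0.000417) on 20 kPa against 1 kPa.

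In Kmt2a, Kmt2b and Kmt2d both 1 kPa libraries lay above the other 4. Kmt2d, which with Kmt2c monomethylates H3K4 at enhancers, had 220.5 and 212 CPM on 1 kPa, 182 and 185 CPM on 20 kPa, and 180.5 and 166 CPM on glass. Its log2 fold change was 0.32 (SE 0.06, adjusted p = 3.91e-05) on 1 kPa against glass and -0.24 (SE 0.06, adjusted p = 0.0038) on 20 kPa against 1 kPa. On 20 kPa against glass it was 0.09 (SE 0.06, adjusted p = 0.264). Kmt2a and Kmt2b, the promoter-bound trithorax homologues, rose on 1 kPa against glass by log2 fold changes of 0.22 and 0.26, and on 20 kPa against 1 kPa they fell by 0.22 and 0.25 on the log2 scale. Of these calls, that of Kmt2a on 1 kPa against glass was lost without 1 kPa replicate 2 (adjusted p = 0.0642). On 20 kPa against 1 kPa, the call of Kmt2a was lost without 1 kPa replicate 2 or 20 kPa replicate 2 and on total counts, with an adjusted p of up to 0.134. That of Kmt2b was lost without 1 kPa replicate 2, 20 kPa replicate 1 or 20 kPa replicate 2 (up to 0.124), and that of Kmt2d without 1 kPa replicate 1 or 20 kPa replicate 1 (up to 0.0990). Kmt2c differed in that it was higher on both gels than on glass. Its log2 fold change was 0.28 (SE 0.08, adjusted p = 0.0034) on 1 kPa, lost without 1 kPa replicate 1 (adjusted p = 0.207), and 0.36 (SE 0.08, adjusted p = 0.00032) on 20 kPa.

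Setd7, which monomethylates H3K4 and many non-histone proteins, was lower on the gels. It had 128 and 125 CPM on 1 kPa, 148 and 141 CPM on 20 kPa, and 164 and 159 CPM on glass. Every glass library lay above every gel library, and the 1 kPa libraries were lowest. The log2 fold change was -0.36 (SE 0.06, adjusted p = 7.98e-06) on 1 kPa against glass and -0.16 (SE 0.06, adjusted p = 0.0245) on 20 kPa against glass. The second of these was lost under 7 of 14 alternatives, among them leaving out glass replicate 1, either 1 kPa library or 20 kPa replicate 2, with an adjusted p of up to 0.199. Setd7 was also the only gene of the 44 called higher on 20 kPa than on 1 kPa, with a log2 fold change of 0.19 (SE 0.06, adjusted p = 0.0173), and that call was lost without 1 kPa replicate 1, 1 kPa replicate 2 or 20 kPa replicate 1.

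Among the 4 listed erasers of H3K4 methylation, Kdm5b alone passed the threshold. That is 25% of them on each gel against glass, beside 45.0% of all tested genes on 1 kPa and 41.8% on 20 kPa. Kdm5b is a Jumonji enzyme that removes H3K4 tri- and dimethylation, and it lies at chr1:134560171-134635285 on the plus strand. It had 92.4 and 92.5 CPM on 1 kPa, 95.2 and 88.3 CPM on 20 kPa, and 61.9 and 63.3 CPM on glass. Both gels lay above glass without overlap, and the gels overlapped each other. The log2 fold change was 0.56 (SE 0.07, adjusted p = 2.05e-08) on 1 kPa against glass and 0.55 (SE 0.06, adjusted p = 3.1e-08) on 20 kPa against glass, and -0.01 (SE 0.06, adjusted p = 0.935) between the gels. Its relative Kdm5a and the flavin-dependent Kdm1b passed no comparison. Kdm1a, the LSD1 enzyme and the most abundant of the H3K4 genes per length, had 81.7 and 85.7 CPM on 1 kPa, 90.9 and 92.7 CPM on 20 kPa, and 93.3 and 84.5 CPM on glass, and had log2 fold changes of -0.09, 0.05 and 0.13 in the 3 comparisons (1 kPa against glass, 20 kPa against glass, 20 kPa against 1 kPa), none past the threshold.

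H3K9 erasers held the largest change of the 44 genes, whereas H3K9 writers gave no call in the main edgeR fit. No H3K9 methyltransferase gene of 6 passed the threshold in any comparison of that fit, and none did with DESeq2 or limma-voom. The main fit called 45.0% of all tested genes on 1 kPa against glass. It called 41.8% on 20 kPa against glass and 18.9% on 20 kPa against 1 kPa. At an unadjusted edgeR p under 0.05, 1 of the 6 genes passed on 1 kPa against glass and 1 on 20 kPa against glass. On 20 kPa against 1 kPa 0 passed. Among the 44, lower calls on 20 kPa against glass rose from 5 to 7 with DESeq2 size factors in edgeR. Higher calls on 1 kPa against glass rose from 17 to 18 with the filter at a mean of 1 CPM. The added genes are not identified here, so an H3K9 writer may be among them. Ehmt2 had 239 and 234 CPM on 1 kPa, 222 and 226 CPM on 20 kPa, and 244 and 221 CPM on glass, and its log2 fold change was 0.02 (SE 0.06, adjusted p = 0.78) on 1 kPa against glass. Its partner Ehmt1, and Setdb1, which silences repeats, had log2 fold changes of 0.06 and 0.07 in that comparison. Setdb2 had a log2 fold change of 0.35 (SE 0.15, adjusted p = 0.0556) on 1 kPa against glass. Suv39h1 and Suv39h2, the pericentromeric H3K9 trimethylases, had log2 fold changes of -0.25 and -0.32 on 20 kPa against glass, with adjusted p of 0.0506 and 0.162, and 14.6% of the Suv39h1 exons overlap another gene.

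Kdm7a, a PHD-Jumonji enzyme that removes mono- and dimethyl marks from H3K9 and H3K27, showed the largest change of the 44 genes. It lies at chr6:39136623-39206789 on the minus strand. Kdm7a had 64.9 and 60.0 CPM on 1 kPa, 57.3 and 51.3 CPM on 20 kPa, and 23.5 and 25.9 CPM on glass. All gel libraries lay above all glass libraries, and the 1 kPa libraries lay above the 20 kPa libraries. The log2 fold change was 1.34 (SE 0.08, adjusted p = 2.82e-14) on 1 kPa against glass and 1.14 (SE 0.08, adjusted p = 1.58e-12) on 20 kPa against glass. Between the gels it was -0.20 (SE 0.08, adjusted p = 0.0631). Phf8, a relative of Kdm7a that acts on H3K9 and H4K20, was lower on 20 kPa than on glass with a log2 fold change of -0.31 (SE 0.09, adjusted p = 0.00525). Leaving out glass replicate 1 or 20 kPa replicate 2 ended that call, with an adjusted p of up to 0.185.

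Kdm4b and Kdm3a rose on 1 kPa. Both are Jumonji enzymes known to be induced under low oxygen, with Kdm4b removing trimethylation from H3K9 and Kdm3a removing its mono- and dimethylation. Kdm4b lies at chr17:56326062-56402870 on the plus strand and had 70.6 and 72.1 CPM on 1 kPa, 52.6 and 53.3 CPM on 20 kPa, and 46.6 and 38.3 CPM on glass. The 1 kPa libraries lay above the rest and the 20 kPa libraries above glass. It changed by a log2 fold change of 0.74 (SE 0.08, adjusted p = 3.53e-09) on 1 kPa against glass, 0.31 (SE 0.08, adjusted p = 0.00198) on 20 kPa against glass and -0.43 (SE 0.08, adjusted p = 9.64e-05) on 20 kPa against 1 kPa. Without glass replicate 2, the adjusted p on 20 kPa against glass was 0.0600.

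Kdm3a lies at chr6:71588972-71632990 on the minus strand and had 80.2 and 81.5 CPM on 1 kPa, 62.4 and 61.5 CPM on 20 kPa, and 57.6 and 58.9 CPM on glass. It stood apart on 1 kPa, with a log2 fold change of 0.47 (SE 0.07, adjusted p = 6.08e-07) against glass and -0.38 (SE 0.07, adjusted p = 5.31e-05) on 20 kPa against 1 kPa. On 20 kPa against glass it was 0.09 (SE 0.07, adjusted p = 0.301). Of the other H3K9 erasers, Kdm4a was lower on 1 kPa than on glass by a log2 fold change of -0.17, a call lost under 7 of 14 alternatives, among them leaving out glass replicate 1 or any of the 4 gel libraries, with an adjusted p of up to 0.495. Kdm4c and Kdm3b passed no comparison, and 24.6% of the Kdm3b exons overlap another gene.

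The 14 hypoxia-inducible genes listed for comparison, none of them among the 44, were highest on 1 kPa as a sum, which was 4577 and 4670 CPM on 1 kPa, 2974 and 2991 CPM on 20 kPa, and 3051 and 3129 CPM on glass. Of these, 13 were higher on 1 kPa than on glass, against 23.0% of all tested genes, with a median log2 fold change of 0.80. Between the gels, 13 were lower on 20 kPa than on 1 kPa, against 9.92%, with a median of -0.89. On 20 kPa against glass 8 were higher and 3 lower, against 22.3% and 19.6%, with a median of 0.18. Adm, one of the 3 lower, averaged 110 CPM on 1 kPa, 43.4 CPM on 20 kPa and 82.2 CPM on glass. Car9, the carbonic anhydrase induced under low oxygen, averaged 167 ± 4.9 CPM on 1 kPa, 67.8 ± 0.13 CPM on 20 kPa and 18.6 ± 0.48 CPM on glass (SD, n = 2). Vegfa, the vascular growth factor, averaged 383 ± 7.7 CPM on 1 kPa, 210.0 ± 4.1 CPM on 20 kPa and 121 ± 0.54 CPM on glass (SD, n = 2). The part of hypoxia in the values of the 44 genes was not tested.

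Of the 5 H3K27 genes, Ezh2 fell and Kdm6b rose on both gels against glass, and the other 3 passed no comparison. The calls are 40% of the 5 on each gel, against 45.0% of all tested genes on 1 kPa and 41.8% on 20 kPa. Ezh2, the catalytic subunit of Polycomb repressive complex 2 (PRC2) in dividing cells, had 28.7 and 28.6 CPM on 1 kPa, 31.4 and 28.7 CPM on 20 kPa, and 36.5 and 34.6 CPM on glass. Every glass library lay above every gel library. Its log2 fold change was -0.31 (SE 0.08, adjusted p = 0.00321) on 1 kPa against glass and -0.25 (SE 0.08, adjusted p = 0.0192) on 20 kPa against glass. The second was lost under 4 of 14 alternatives, among them leaving out glass replicate 1 or 20 kPa replicate 2, with an adjusted p of up to 0.189. Ezh1, the other catalytic subunit, had a log2 fold change of 0.15 (SE 0.08, adjusted p = 0.126) on 1 kPa against glass. Suz12, the most abundant of the H3K27 genes per length of exon union and second to Eed by longest transcript, had 56.5 and 56.4 CPM on 1 kPa, 55.4 and 55.1 CPM on 20 kPa, and 56.3 and 63.6 CPM on glass, and its log2 fold changes against glass were -0.08 on 1 kPa and -0.11 on 20 kPa. Eed, the subunit that binds H3K27 trimethylation, had a log2 fold change of -0.18 (SE 0.08, adjusted p = 0.0885) on 1 kPa against glass.

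The H3K27 eraser Kdm6b (JMJD3), a Jumonji enzyme, rose on both gels. It lies at chr11:69398508-69413675 on the minus strand and had 97.2 and 88.5 CPM on 1 kPa, 78.2 and 77.6 CPM on 20 kPa, and 69.3 and 64.7 CPM on glass. The 3 culture surfaces did not overlap, again with 1 kPa highest and glass lowest. Its log2 fold change was 0.47 (SE 0.07, adjusted p = 8.49e-07) on 1 kPa against glass, 0.22 (SE 0.07, adjusted p = 0.0103) on 20 kPa against glass and -0.25 (SE 0.07, adjusted p = 0.00554) on 20 kPa against 1 kPa. The change on 20 kPa against glass was lost without glass replicate 2, without 20 kPa replicate 1 and without 20 kPa replicate 2, with an adjusted p of up to 0.0673. The call between the gels was lost without 1 kPa replicate 1, 20 kPa replicate 1 or 20 kPa replicate 2, with an adjusted p of up to 0.197.

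Proliferation genes, listed for comparison, were mostly lower on the gels than on glass. Of 16, 12 were lower on 1 kPa than on glass, against 22.0% of all tested genes, and 14 were lower on 20 kPa than on glass, against 19.6%. Between the gels, 6 were lower on 20 kPa than on 1 kPa (3 without 1 kPa replicate 2), with a median log2 fold change of -0.14 for the 16, and the log2 fold change of Ezh2 was 0.07. The summed level of the 16 was 1083 and 1106 CPM on 1 kPa, 989 and 956 CPM on 20 kPa, and 1520 and 1545 CPM on glass. Mki67, the nuclear marker of cycling cells, averaged 179.9 ± 4.5 CPM on 1 kPa, 148 ± 2.9 CPM on 20 kPa and 296 ± 2.4 CPM on glass (SD, n = 2). Top2a, a topoisomerase of dividing cells, averaged 182 ± 6.1 CPM on 1 kPa, 168 ± 15 CPM on 20 kPa and 275 ± 11.6 CPM on glass (SD, n = 2). The part of proliferation in the values of the 44 genes was not tested.

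Of the 6 H3K36 writers, Nsd3, a dimethylase, was the only gene past the threshold, with a log2 fold change of 0.25 (SE 0.06, adjusted p = 0.00149) on 1 kPa against glass and 0.22 (SE 0.06, adjusted p = 0.00621) on 20 kPa against glass. That is 16.7% of the 6 on each gel, against 45.0% of all tested genes on 1 kPa and 41.8% on 20 kPa. The call on 20 kPa was lost without 20 kPa replicate 1 (adjusted p = 0.142). Setd2, the trimethylase that travels with RNA polymerase II, had log2 fold changes of 0.06 and 0.04 against glass on 1 kPa and 20 kPa. Nsd1, Nsd2, Ash1l and Smyd2 passed no comparison. Smyd2, the most abundant of the H3K36 genes per length, ranged over 30.6 to 35.3 CPM, and 30.0% of its exons overlap another gene. Of the erasers, Kdm2a, which reaches unmethylated CpG islands through a zinc finger, had 161 and 161 CPM on 1 kPa, 141 and 134 CPM on 20 kPa, and 134 and 131 CPM on glass. It was higher on 1 kPa than on glass, with a log2 fold change of 0.28 (SE 0.06, adjusted p = 0.00018), and lower on 20 kPa than on 1 kPa, with -0.22 (SE 0.06, adjusted p = 0.0055). The second call was lost under 4 of 14 alternatives, among them leaving out either 1 kPa library or 20 kPa replicate 2, with an adjusted p of up to 0.11. Kdm2b passed no comparison.

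H4K20 methylation is begun by Kmt5a, the monomethylase that acts in late cell cycle, and extended by Kmt5b and Kmt5c. Kmt5a had 141 and 139.9 CPM on 1 kPa, 125 and 119.9 CPM on 20 kPa, and 141 and 135 CPM on glass. The 20 kPa libraries were the lowest. Its log2 fold change was -0.17 (SE 0.06, adjusted p = 0.0195) on 20 kPa against glass and -0.20 (SE 0.06, adjusted p = 0.0142) on 20 kPa against 1 kPa, calls that were lost under 3 and 5 of 14 alternatives. The first ended without glass replicate 1 or 20 kPa replicate 2, and the second when any one of the 4 gel libraries was left out. Kmt5c was higher on 1 kPa than on glass with a log2 fold change of 0.27 (SE 0.08, adjusted p = 0.00582), lost without 1 kPa replicate 2 (adjusted p = 0.0643). Kmt5b had a log2 fold change of 0.18 (SE 0.07, adjusted p = 0.0332) there, lost under 6 of 14 alternatives, among them leaving out glass replicate 2, 1 kPa replicate 1 or 1 kPa replicate 2, with an adjusted p of up to 0.164.

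Outside these residues stood Dot1l, the H3K79 methyltransferase that has no SET domain, and Jmjd6, a Jumonji protein whose role as a histone demethylase is disputed and which hydroxylates lysines. Dot1l had 70.8 and 78.7 CPM on 1 kPa, 61.5 and 60.7 CPM on 20 kPa, and 60.8 and 52.3 CPM on glass. It showed a log2 fold change of 0.40 (SE 0.08, adjusted p = 6.17e-05) on 1 kPa against glass and -0.29 (SE 0.07, adjusted p = 0.00515) on 20 kPa against 1 kPa, the second lost without 1 kPa replicate 2, 20 kPa replicate 1 or 20 kPa replicate 2. Jmjd6 lies at chr11:116837432-116843449 on the minus strand and had 63.3 and 65.1 CPM on 1 kPa, 41.4 and 45.3 CPM on 20 kPa, and 52.0 and 57.2 CPM on glass. Its 20 kPa libraries were the lowest of the 6 and its 1 kPa libraries the highest. The log2 fold change was -0.56 (SE 0.07, adjusted p = 1.01e-06) on 20 kPa against 1 kPa, -0.33 (SE 0.08, adjusted p = 0.000681) on 20 kPa against glass and 0.23 (SE 0.07, adjusted p = 0.01) on 1 kPa against glass. The last call ended when glass replicate 1 or 1 kPa replicate 2 was left out, with an adjusted p of up to 0.102.

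Summed per length over each class, the H3K4 methyltransferases reached 77.1 ± 0.31 on 1 kPa, 69.5 ± 2.0 on 20 kPa and 65.7 ± 3.3 on glass (SD, n = 2). Kmt2e, whose own enzyme activity is disputed, contributed 19.53 to this sum on 1 kPa, 15.99 on 20 kPa and 12.01 on glass. Kmt2e carried the largest part of the difference between 1 kPa and glass. Of the 9 genes, 8 had a positive log2 fold change in that comparison and 1, Setd7, a negative one. The H3K9 demethylases reached 64.0 ± 1.1 on 1 kPa, 58.2 ± 1.7 on 20 kPa and 54.3 ± 4.1 on glass. In both classes the 1 kPa libraries lay above the rest. For the H3K9 demethylases the 20 kPa and glass libraries overlapped. The H3K27 methyltransferase genes summed to 30.0 ± 0.22 on 1 kPa, 30.8 ± 0.62 on 20 kPa and 32.2 ± 1.7 on glass. All 29 methyltransferase genes summed to 273 ± 0.21 on 1 kPa, 256 ± 3.6 on 20 kPa and 256 ± 8.4 on glass, and all 15 demethylase genes to 135 ± 0.99 on 1 kPa, 123 ± 1.9 on 20 kPa and 117 ± 5.0 on glass. These sums were not tested.

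**Figure D5:**
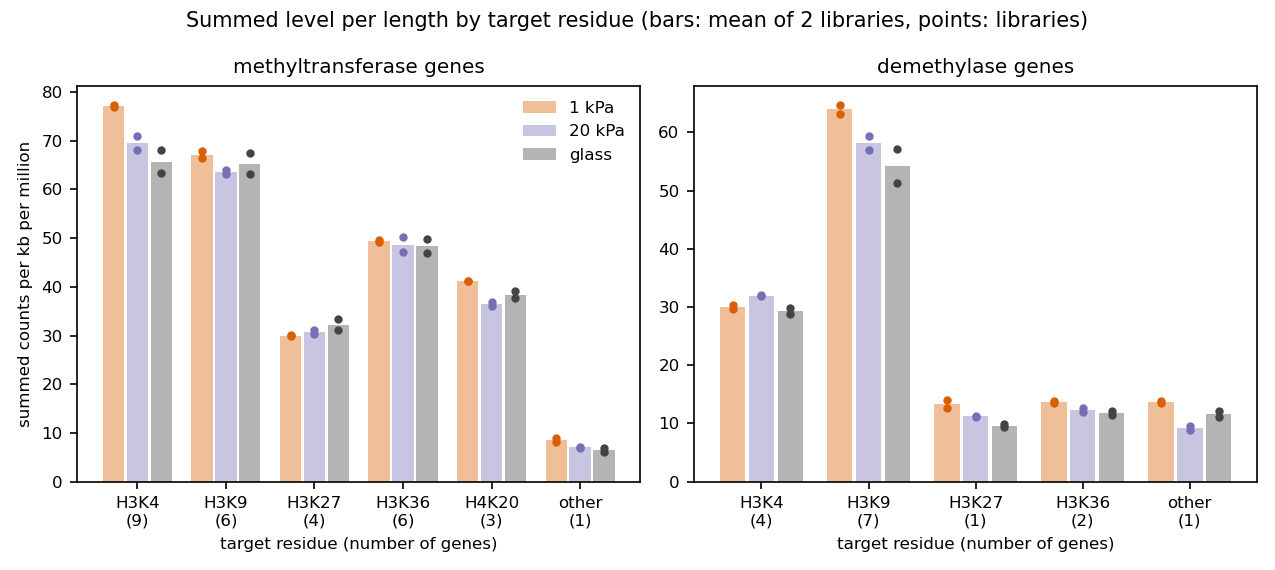
Summed level per length (CPM per kb of exon) of the methyltransferase genes (left) and demethylase genes (right) by target residue, with the number of genes in brackets. Bars are means of 2 libraries on 1 kPa, 20 kPa and glass, and points are libraries. The H3K4 methyltransferase sum is 77.1 on 1 kPa and 65.7 on glass, of which Kmt2e alone is 19.53 and 12.01.

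The proteins that act with these enzymes were followed in lists of their own. The counts in these lists stand beside 23.0% of all tested genes higher and 22.0% lower on 1 kPa against glass, and 22.3% higher and 19.6% lower on 20 kPa against glass. Of 12 tested subunits of the COMPASS and MLL complexes, Cxxc1 rose and Ash2l fell on 1 kPa against glass, the second call lost under 10 of 14 alternatives. Cxxc1, which guides SETD1 to unmethylated CpG islands, averaged 75.8 ± 4.4 CPM on 1 kPa, 71.6 ± 0.85 CPM on 20 kPa and 59.1 ± 3.0 CPM on glass (SD, n = 2), with a log2 fold change of 0.36 (SE 0.07, adjusted p = 7.73e-05) on 1 kPa against glass. Of 10 partners of LSD1, 3 rose on 1 kPa and 4 on 20 kPa against glass. Rcor2, a CoREST scaffold, averaged 29.8 ± 1.4 CPM on 1 kPa, 19.9 ± 1.1 CPM on 20 kPa and 13.8 ± 1.3 CPM on glass, with a log2 fold change of 1.10 (SE 0.10, adjusted p = 2e-10) on 1 kPa against glass and -0.58 (SE 0.10, adjusted p = 3.47e-05) on 20 kPa against 1 kPa.

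The accessory subunits of PRC2 split, with 3 of 8 higher (Mtf2, Jarid2 and Phf1) and 4 lower (Phf19, Rbbp4, Rbbp7 and Aebp2) on 1 kPa than on glass. Mtf2 and Jarid2, which target PRC2 to chromatin, rose by log2 fold changes of 0.63 and 0.49 on 1 kPa, and of 0.52 and 0.59 on 20 kPa. Phf19, a relative of Mtf2, averaged 9.69 ± 0.48 CPM on 1 kPa, 6.90 ± 0.66 CPM on 20 kPa and 16.6 ± 0.080 CPM on glass (SD, n = 2). It fell with log2 fold changes of -0.78 (SE 0.12, adjusted p = 5.35e-06) on 1 kPa against glass and -1.27 (SE 0.13, adjusted p = 1.89e-09) on 20 kPa against glass. Of 19 subunits of Polycomb repressive complex 1, 10 were higher and 1 lower than on glass on each gel, with median log2 fold changes of 0.24 on 1 kPa and 0.23 on 20 kPa. The calls on 1 kPa numbered 6 in all when either 1 kPa library was left out, and those on 20 kPa numbered 7 without 20 kPa replicate 2. Pcgf2, a PRC1 core subunit, rose by 0.49 on 1 kPa and 0.51 on 20 kPa on the log2 scale. Of 11 partners of H3K9 methylation, 2 rose (Atf7ip and Wiz) and 3 fell (Cbx5, Cbx3 and Zfp644) on 1 kPa against glass, and 3 calls were made when either 1 kPa library was left out. Cbx5, the HP1 alpha protein that binds H3K9 trimethylation, averaged 119.8 ± 0.82 CPM on 1 kPa, 131 ± 3.5 CPM on 20 kPa and 149.7 ± 0.50 CPM on glass, with a log2 fold change of -0.32 (SE 0.06, adjusted p = 3.54e-05) on 1 kPa against glass.

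Of 10 tested genes with a Jumonji domain outside the 44, Hr rose and Kdm8 fell on 1 kPa against glass, the second call lost under alternatives that include leaving out glass replicate 1 or 1 kPa replicate 2. Hr, a corepressor known as an H3K9 demethylase, averaged 55.2 ± 0.92 CPM on 1 kPa, 58.8 ± 1.1 CPM on 20 kPa and 11.5 ± 0.37 CPM on glass (SD, n = 2), with log2 fold changes of 2.27 (SE 0.09, adjusted p = 3.55e-19) on 1 kPa and 2.36 (SE 0.09, adjusted p = 1.34e-19) on 20 kPa against glass. Of 11 other SET-domain and PRDM genes, 2 rose (Smyd1 and Setd4) and 2 fell (Mecom and Setd3) on 1 kPa against glass, with 2 calls in all without 1 kPa replicate 1. Smyd1 had few counts, with averages of 0.743 CPM on 1 kPa, 0.608 CPM on 20 kPa and 0.0870 CPM on glass. Mecom, a PRDM-family transcription regulator, averaged 47.4 ± 0.29 CPM on 1 kPa, 74.5 ± 0.88 CPM on 20 kPa and 72.3 ± 0.16 CPM on glass, and fell with a log2 fold change of -0.61 (SE 0.07, adjusted p = 9.32e-09) on 1 kPa against glass. On 20 kPa against 1 kPa it rose with a log2 fold change of 0.65 (SE 0.07, adjusted p = 1.03e-08). Of 8 tested arginine methyltransferases, 3 fell on 1 kPa against glass (Prmt2, Prmt1 and Prmt9), with 1 call when either 1 kPa library was left out. Prmt2 had a log2 fold change of -0.35 (SE 0.09, adjusted p = 0.00119) on 1 kPa against glass.

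Of 15 tested enzymes that make or use the cofactors of these reactions, 2 rose and 7 fell on 1 kPa against glass, with the same counts on 20 kPa. Idh1, which makes 2-oxoglutarate from isocitrate, averaged 82.6 ± 3.9 CPM on 1 kPa, 99.2 ± 4.4 CPM on 20 kPa and 163 ± 16.1 CPM on glass (SD, n = 2), with a log2 fold change of -0.98 (SE 0.07, adjusted p = 3.65e-13) on 1 kPa against glass. Ahcy, which clears the S-adenosylhomocysteine that inhibits methyltransferases, averaged 77.6 ± 0.92 CPM on 1 kPa, 86.1 ± 2.0 CPM on 20 kPa and 123 ± 1.7 CPM on glass, with a log2 fold change of -0.67 (SE 0.06, adjusted p = 1.91e-10) on 1 kPa against glass. Nnmt, which spends S-adenosylmethionine on nicotinamide, averaged 51.6 ± 4.0 CPM on 1 kPa, 41.7 ± 0.67 CPM on 20 kPa and 21.2 ± 1.6 CPM on glass and rose with a log2 fold change of 1.29 (SE 0.09, adjusted p = 2.08e-13) on 1 kPa against glass.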

How the data were processed

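Polyadenylated RNA was sequenced from 6 libraries, 2 per culture surface. The deposited values are whole-number counts per gene, made by the authors and not normalised. The submitters' processing notes name the mm10 build, STAR 2.7.10b, featureCounts, cutadapt and Trim Galore. Annotation release, strand and other settings: not given in the sources used here. Reads shared by overlapping genes are therefore uncertain. At least 5% of the exons overlap other genes in 11 of the 44. Among these are the called genes Kmt2e (9.31%), Jmjd6 (7.34%, with 3.68% on the same strand) and Kmt5b (6.28%). The table's 57010 Ensembl identifiers were matched to GENCODE M21 (GRCm38): 91.4% matched, and all 44 genes did, each with another version number, so gene ends may differ.

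Groups came from the sample titles. Genes were filtered with filterByExpr and scaled by TMM, and the 6 libraries were fitted together by quasi-likelihood (edgeR 4.0.16, R 4.3.3) on group alone, leaving 3 residual degrees of freedom, with a common biological coefficient of variation of 4.98%. Each gene's estimate of spread was moderated over all tested genes, so the tests rest on more than the 3 residual degrees of freedom. The SE is the log2 fold change's size divided by the square root of F. An exact permutation test of 2 against 2 libraries cannot give a p below 0.333, so single values were not tested in that way. CPM uses TMM-scaled totals, and levels per length divide by the union of exons. Genes with few counts have a larger SE.

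Alternatives were other scalings (total counts, DESeq2 size factors), DESeq2 1.42.0, limma-voom (limma 3.58.1), no filter, a mean of at least 1 CPM, the 2 groups alone, a replicate block and leaving out each library. The members and lists were chosen with earlier results of these data known. Values in every library are given for genes past the threshold with a log2 change of at least 0.4 in size and for the most abundant gene per length of each residue; a few others are added, chosen after their values were seen. From each comparison list, up to 3 genes with the smallest p in a comparison could be named, besides Mki67, Top2a, Car9 and Vegfa. Aebp2, Rbbp7, Wiz, Ptprc, Kdm6a and Kdm5c were named outside that rule. Promoter windows came from RefSeq (GRCm38.p6).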

Additional observations from a re-analysis of the deposited data

How the results depend on the processing

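Across 14 alternatives, no called gene of the 44 reversed. Of the calls, 13 of 20 on 1 kPa against glass, 5 of 12 on 20 kPa against glass and 4 of 12 on 20 kPa against 1 kPa held under all of them. Leaving out 1 library at a time gave 15 to 21, 7 to 12 and 6 to 15 calls among the 44 in these comparisons, and 16 to 23 over the 3 groups. Among all genes, DESeq2 called 2022 on 20 kPa against 1 kPa where edgeR called 3035, and leaving out 1 library gave 1727 to 3758. The cause was not tested. With the replicate block, 20, 12 and 12 of the 44 genes were called, the same counts as without it. Over all tested genes, deviations of same-numbered libraries correlated at -0.03 to -0.02. Counting noise in genes with few counts can hide a shared deviation, so this check cannot tell whether the numbers pair the libraries. By longest transcript, the median level per length was 10.5, because the lengths are shorter. Values that passed no threshold changed sign without glass replicate 1 for Kdm4a on 20 kPa against glass (log2 fold changes of -0.19 to 0.032 with 1 library left out) and for Nsd2 on 1 kPa against glass (-0.21 to 0.032). Depth limits the scarcest genes, Smyd3 and Suv39h2. Between the 2 libraries of a group, the chi-square of the counts per degree of freedom was 39.7 on glass, 10.5 on 1 kPa and 3.61 on 20 kPa. Correlations of their log2 CPM were 0.992, 0.992 and 0.993. By the first measure the glass libraries differed the most, while the fit gave all groups a shared estimate of the spread. With 2 libraries per group, 1 deviating library cannot be recognised.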
